A study of Rattus norvegicus with 12 samples.

Results

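The miR-190 family in rat liver comprised 2 of the 444 features in the deposited table, Mir190b and Mir190, and both were among the 293 features tested. They were taken as every feature with the microRNA number 190. The family was chosen by the readout: Mir190b had the smallest p of all tested features in dextromethorphan against vehicle, so its values in that contrast are given as a description, with no test. The libraries came from liver of male Sprague-Dawley rats (Jcl:SD, an outbred stock), aged 7 weeks when they were split into groups of 5, dosed orally on 5 days and sampled 1 h after the last dose. All rats received sterile distilled water as the vehicle. Control rats received it alone, CAF rats received 120 mg/kg caffeine in it, DEX rats 100 mg/kg dextromethorphan hydrobromide monohydrate, and CAF+DEX rats both drugs at these doses. Caffeine blocks adenosine receptors, and dextromethorphan is a cough suppressant of the morphinan type. Each group has 3 libraries, 12 in all, which are named here by the library numbers in the column headers. No source says which rat a library came from, so the p-values measure only the spread between these libraries, which may be technical.

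A microRNA gene is transcribed into a hairpin that Drosha and Dicer cut to a short mature strand. Loaded into Argonaute, the strand lowers the output of transcripts that pair with its seed, the bases 2 to 8 from its 5′ end. Mir190 encodes miR-190a and lies inside Tln2, the gene of the adhesion protein talin 2. Reported targets of miR-190a are transcripts of Phlpp1, a phosphatase that switches off Akt, and of Neurod1, a transcription factor of neurons and endocrine pancreas. For miR-190b, Igf1, the growth factor that liver releases under growth hormone, has been reported as a target in liver cancer cells.

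The sequences are shown because they define the family and show how alike the 2 genes are. They are RefSeq's for rat, build GRCr8, written 5′ to 3′ with the seed of each mature strand in capitals.
rno-miR-190b-5p: uGAUAUGUuugauauuagguu
rno-miR-190a-5p: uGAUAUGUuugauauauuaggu
rno-miR-190b-3p: aACUAAAUgucaaacauucu
The 5p strands, of 21 and 22 bases, are identical over their first 15 bases, seed included, and differ after that. Of the 724 mature rat sequences in the RefSeq table, only these 2 carry the seed GAUAUGU. The hairpins follow, with the 5p strand in capitals.
Mir190b hairpin: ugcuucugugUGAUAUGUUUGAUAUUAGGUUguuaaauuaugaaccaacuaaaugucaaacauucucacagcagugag
Mir190 hairpin: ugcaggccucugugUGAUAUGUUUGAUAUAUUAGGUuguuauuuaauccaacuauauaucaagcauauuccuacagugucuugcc
In a global alignment of 88 columns, 62 columns were identical, or 70.5%. The deposited table lists 1 value per hairpin gene, so reads of the 5p and 3p strands cannot be told apart.

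The genes sit on different chromosomes. On rn7, the build of the deposited table, Mir190b (ENSRNOG00000041245) is on chromosome 2 from 175514800 to 175514877, on the plus strand, with a length of 78 bases. Mir190 (ENSRNOG00000069451) is on chromosome 8 from 67850987 to 67851071, on the minus strand, with a length of 85 bases. In RefSeq's gene list for GRCr8, the span of Tln2 contains Mir190. Mir190b has Cfap141 on one side and overlaps the edge of Tpm3, a tropomyosin gene, on the other. Exon or intron positions within these genes were not analysed here. No other listed microRNA is close to either gene. The nearest to Mir190b was Mir92b, 0.881 megabases away, with 0 to 3 reads per library. The nearest to Mir190 was Mir628, 5.89 megabases away and at 0 reads in all 12 libraries.

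Depth was even across the libraries. Between 2863572 and 3418568 reads per library on the listed features could be recovered from the deposited values, which are FPKM (reads scaled by the length of the feature and the total of the library). The hepatocyte microRNA list, led by Mir192, summed to 3643368 to 4021496 FPKM over the 12 libraries. The leukocyte list, with Mir142 and Mir146a, summed to 256370 to 291122 FPKM in Control and 252967 to 288492 FPKM in DEX. Its sum was lower with caffeine, at 170746 to 209357 FPKM in CAF and 191008 to 234448 FPKM in the combination. The muscle list, with Mir1b, summed to 6127 FPKM in Control library 1 against 2330 and 2838 FPKM in Control libraries 3 and 4. None of the marker lists had a matched member at 0 in all libraries.

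Mir190 was the abundant member and was nearly level in all libraries. It stood at 26888, 25699 and 27682 FPKM in Control libraries 1, 3 and 4. The CAF libraries 1, 2 and 5 held 26341, 26114 and 26861 FPKM. The DEX libraries 1, 2 and 4 held 27307, 25720 and 27249 FPKM. All 4 groups overlapped, and CAF+DEX, with 24269, 26797 and 26124 FPKM in libraries 1, 2 and 5, held the lowest library. Group means were 26756 ± 998 FPKM (SD, n = 3) in Control, 26439 ± 383 in CAF, 26758 ± 900 in DEX and 25730 ± 1309 in CAF+DEX. The highest library was 1.14 times the lowest. By reads, 6412 to 7791 per library came from Mir190, or 0.206 to 0.235% of the reads on listed features, and it ranked 47 to 53 by FPKM.

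Mir190b, the less abundant member, was high in 2 Control libraries and lower in the other 10 libraries. Control libraries 1, 3 and 4 held 2966, 2170 and 3409 FPKM, so library 3 lay near the treated level, and libraries 1 and 4 were 1.37 and 1.57 times library 3. CAF libraries 1, 2 and 5 held 2122, 2124 and 2066 FPKM, a narrow band just below the lowest Control library. DEX libraries 1, 2 and 4 held 1700, 1846 and 1974 FPKM, all below every Control library (as for 4.1% of the features tested). CAF+DEX libraries 1, 2 and 5 held 1700, 2299 and 2167 FPKM, from the DEX level up to inside the Control range.

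Averaged over the group, Mir190b stood at 2848 ± 628 FPKM (SD, n = 3) in Control, 2104 ± 33.1 in CAF, 2055 ± 315 in CAF+DEX and 1840 ± 137 in DEX. In this order Control and CAF did not overlap under the deposited scaling. A separation in this direction was seen in 8.19% of the features tested. Control library 3 and CAF library 2 differed by less than the spread within Control. CAF and CAF+DEX overlapped, and so did CAF+DEX and DEX. The Mir190b values rest on 390 to 825 reads per library, or 0.0133 to 0.0266% of reads, at ranks 90 to 108 by FPKM. Per length, Mir190 was 11.9 times as abundant as Mir190b over the 12 libraries.

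**Figure D1:**
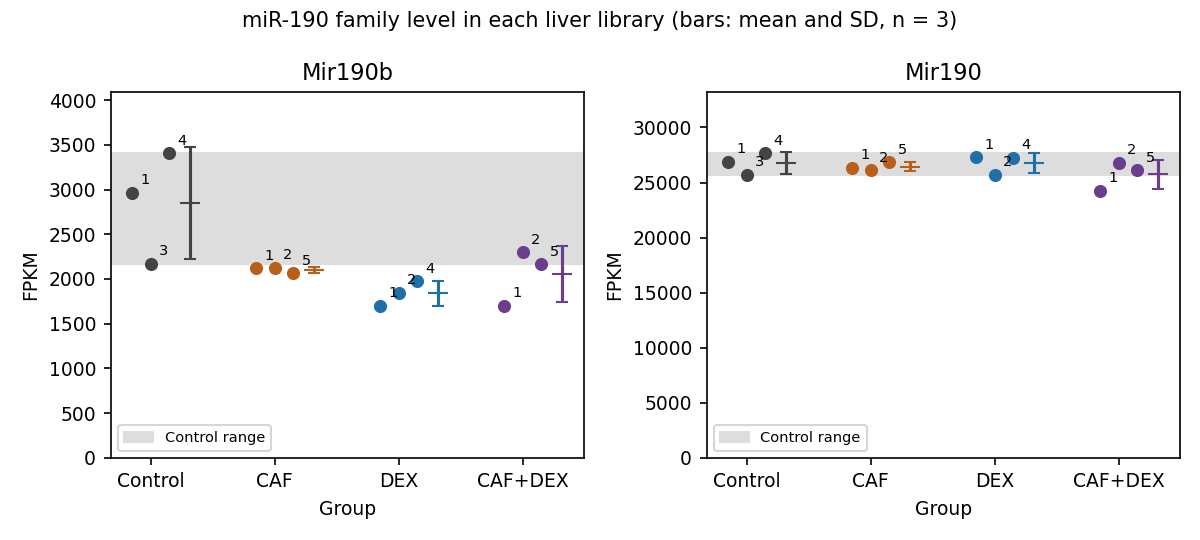
FPKM (y axis) of Mir190b (left) and Mir190 (right) in the 4 groups (x axis); each point is 1 library with its header number, the bar beside it is the mean with SD (n = 3), and the grey band spans the Control libraries. Mir190b is highest in Control libraries 4 (3409 FPKM) and 1 (2966 FPKM), and Mir190 lies between 24269 and 27682 FPKM throughout.

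Of the 9 treated libraries, 8 lay below the Mir190b Control range and 1, CAF+DEX library 2, lay inside it. Of the 293 features tested, 7 (2.39%) had at least 8 treated libraries below their Control range, Mir190b among them. This count is not independent of the choice and is given as a description. The choice had used all 3 DEX libraries in the count and also the Control libraries that set the range for every treated library. The count also depended on the scaling, since Control library 3 sets the lower edge. Under median-ratio size factors 5 of the 9 treated libraries lay below the range, and under quantile normalization 4 did. For Mir190, 8 of the 9 treated libraries lay inside the Control range and 1, CAF+DEX library 1, below it.

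The Control group was the most variable for Mir190b. The SD of its log2 value was 0.33 between the Control libraries, 0.23 in CAF+DEX, 0.11 in DEX and 0.02 in CAF. Among the 26 tested features within 2-fold of the Mir190b depth, the median Control SD was 0.10, and 2 of the 26 had a larger one than Mir190b. Counting alone at a mean of 547 reads gives a relative error of 4.28%, and the Control libraries spread by 22.0% of their mean in FPKM. The CAF libraries spread by 1.57%, less than the counting error of 4.51% at their mean reads. For Mir190 the Control SD was 0.05 on the log2 scale, beside a median of 0.05 over 34 features of like depth.

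**Figure D2:**
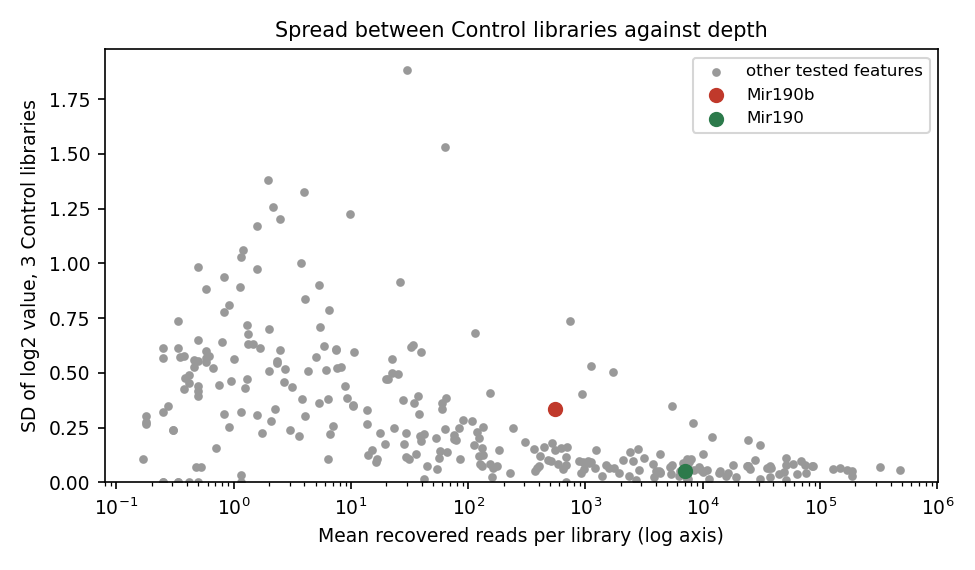
SD of the log2 value over the 3 Control libraries (y axis) against mean recovered reads per library (x axis, log scale) for the 293 features tested. Mir190b, at 547 reads and an SD of 0.33, stands above most features of its depth, and Mir190, at 7110 reads and 0.05, stands among them.

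The balance between the 2 genes was taken from their reads, a measure that does not depend on the total of the library. Mir190b made up 9.19% of the family's reads in Control library 1 (95% Wilson interval 8.58 to 9.84%), 7.19% in Control library 3 (6.64 to 7.77%) and 10.2% in Control library 4 (9.51 to 10.8%). The interval of Control library 3 did not reach those of the other Control libraries, so these libraries differed beyond counting error, which is all such intervals cover. The share ran from 6.59 to 6.95% with caffeine, from 5.40 to 6.23% with dextromethorphan and from 6.04 to 7.30% with both. Group means were 8.84 ± 1.51% (SD, n = 3) in Control, 6.81 ± 0.189% in CAF, 5.94 ± 0.465% in DEX and 6.80 ± 0.672% in CAF+DEX. Since Mir190 was level, this share followed Mir190b.

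**Figure D3:**
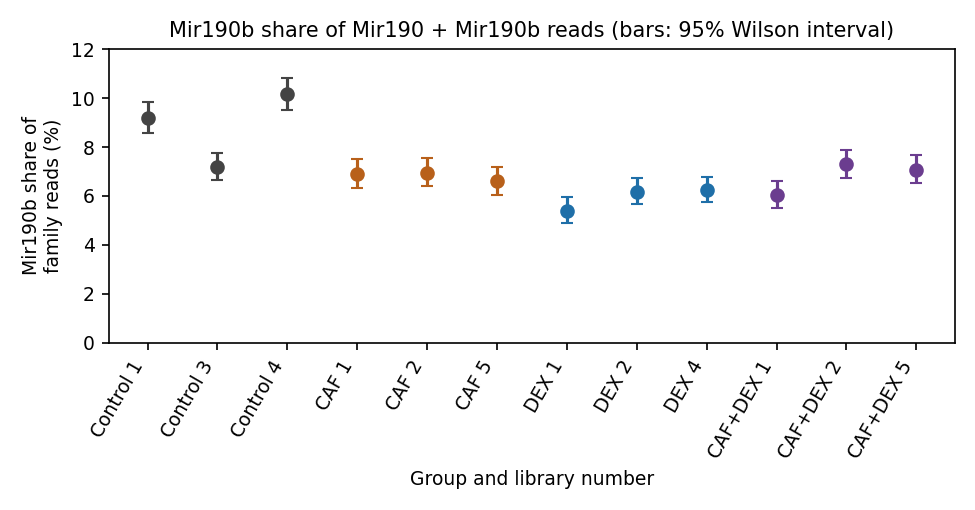
Share of Mir190b in the summed reads of Mir190b and Mir190 (y axis, percent) in each library (x axis), with 95% Wilson intervals for counting error. Control libraries 1 (9.19%) and 4 (10.2%) stand above the other 10 libraries, which lie between 5.40 and 7.30%.

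Dextromethorphan alone against vehicle is the contrast by which the family was chosen. The difference of Mir190b was -0.61 on the log2(FPKM + 4.01) scale (SE 0.15, n = 3 per group), and that of Mir190 was 0.0002 (SE 0.06). Every DEX library was below every Control library for Mir190b, and nothing is read from this, since that contrast made the choice. No feature passed in this contrast (0% called in limma at a Benjamini-Hochberg adjusted p of 0.05, with 13 features at an unadjusted p under 0.05 and 0 called by limma-voom). The features next in order were Mir29b1 at 0.20 (SE 0.05) and Mir29b-3 at 0.20 (SE 0.06), gene copies of the collagen-targeting miR-29b that share reads, and then Mir494, which averaged 1.75 reads per library and is given no fold. Mir190b was no longer the first in order in 9 of 21 alternative settings, where it stood between the second and the sixth place. The sixth place came from a fit of only the 6 libraries compared. Without Control library 4 the Mir190b difference was -0.47, and without Control library 3 it was -0.79.

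Caffeine alone and the combination were compared with the same Control libraries, so their values are not independent of the choice and carry no test. For CAF against Control the Mir190b difference was -0.41 on the log2 scale (SE 0.15), and for CAF+DEX against Control it was -0.46 (SE 0.15). Under the deposited scaling every CAF library was below every Control library (as for 8.19% of the features tested), while in CAF+DEX 2 of 3 libraries were. The margins were small, with Control library 3 at 2170 FPKM, CAF library 2 at 2124 and CAF+DEX library 5 at 2167. Under median-ratio size factors 5 of the 9 treated libraries lay below the Control range, and under quantile normalization 4 did. These are too few to hold every CAF and every DEX library. The difference for CAF was -0.27 without Control library 4 and -0.59 without Control library 3, and that for CAF+DEX was -0.32 and -0.64. For Mir190 the differences from Control were -0.02 in CAF and -0.06 in CAF+DEX (SE 0.06 each). All 3 treated groups were thus below the Control mean for Mir190b and within 0.06 of it on the log2 scale for Mir190, from 1 set of Control libraries.

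Dextromethorphan added to caffeine was the contrast whose group means share no library with the contrast of the choice. It asks whether the drug's difference is seen again. Independence is not complete, since the limma p-values of both contrasts take each gene's spread from all 12 libraries. The exact permutation test uses the CAF and CAF+DEX libraries alone. The drug's difference was not detected for either gene. Mir190b stood at 2055 ± 315 FPKM in CAF+DEX against 2104 ± 33.1 FPKM in CAF (SD, n = 3 each), and the CAF+DEX libraries lay on both sides of the CAF libraries. The log2 difference was -0.05 (SE 0.15, limma, Benjamini-Hochberg adjusted p = 0.988), with a 95% interval from -0.38 to 0.29, or from -23.2 to 22.2%. The exact two-sided permutation test gave p = 1, where 0.1 is the smallest that 3 against 3 libraries allow. Without CAF+DEX library 1, its lowest library, the exact permutation p was 0.1, the smallest that 2 against 3 allow, and the difference was 0.08 (limma adjusted p = 0.981, range over all alternatives 0.917 to 1).

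For Mir190 the same contrast gave -0.04 (SE 0.06, limma adjusted p = 0.988, exact permutation p = 0.5), with a 95% interval from -10.7 to 5.86%. Its sign turned under quantile normalization, at 0.01. The log2 ratio of Mir190b to Mir190 reads differed by -0.0055 between CAF+DEX and CAF (exact permutation p = 1), and by 0.084 without CAF+DEX library 1 (exact permutation p = 0.1). In this contrast 0 of 293 features (0%) passed in limma, 15 had an unadjusted p under 0.05, and limma-voom also called 0.

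The remaining comparisons hold DEX libraries and are given as values. Caffeine added to dextromethorphan gave a Mir190b difference of 0.15 (SE 0.15) between CAF+DEX and DEX, with overlapping libraries, and -0.06 (SE 0.06) for Mir190. The interaction, the difference made by dextromethorphan with caffeine less that without, was 0.56 (SE 0.22) for Mir190b and -0.04 (SE 0.08) for Mir190. It contains the contrast used for the choice and was not tested.

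**Figure D4:**
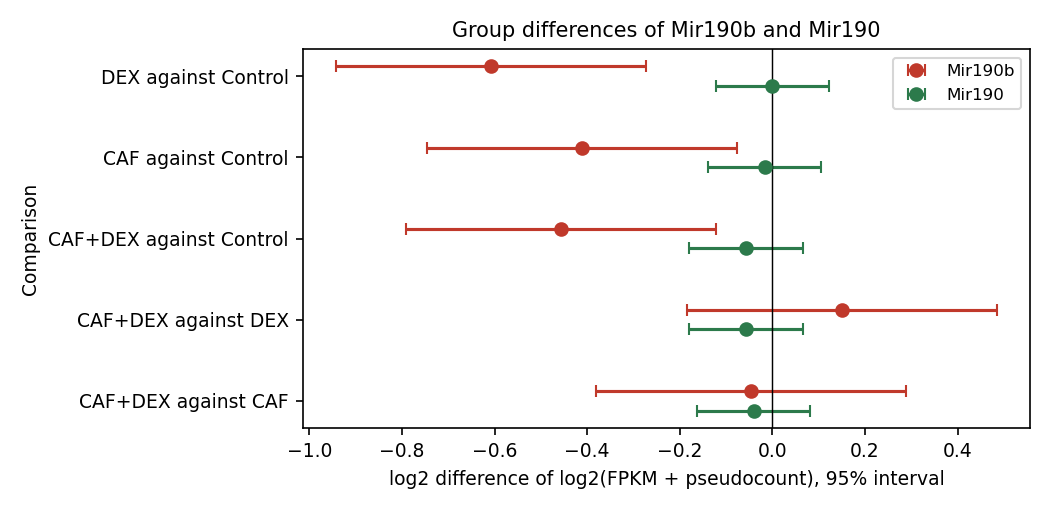
Difference between groups on the log2(FPKM + 4.01) scale (x axis) for Mir190b and Mir190 in 5 comparisons (y axis); points are limma estimates and bars 95% intervals. The comparisons with Control or DEX hold libraries used for the choice, so their intervals are descriptions, and whether they include 0 is not read as a test. In CAF+DEX against CAF, which holds neither group, both intervals include 0 (-0.05 for Mir190b and -0.04 for Mir190).

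Other microRNAs tied to insulin and IGF signalling were looked at because Igf1 is a reported miR-190b target. From 20 names, 27 listed features were matched, all tested. They include the let-7 genes, which lower transcripts of insulin and IGF receptors, Mir103a1, Mir103a2 and Mir107, which reduce hepatic insulin sensitivity, and Mir802, which rises in obesity. In CAF+DEX against CAF, 17 were higher, 10 were lower and 0 passed. The median difference was 0.03 on the log2 scale against -0.0026 over all 293 features, of which 143 were higher and 149 lower. The members with the smallest p were Mir320a at -0.48 (SE 0.20) and the copies Mir26a and Mir26a-2, which share reads, at 0.16 each (SE 0.08 each). In DEX against Control, 22 were higher, 5 were lower and 0 passed, with a median of 0.10 against 0.0039 over all features. Over all 293 features 150 were higher and 141 lower. Gene copies that share reads are counted separately in the 22. Among them are Mir29b1 and Mir29b-3, which followed Mir190b in the order of p in DEX against Control. In CAF against Control, which shares those Control libraries, 14 were higher and 13 lower, with a median of 0.01.

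In CAF against Control the Mir190b difference was -0.41. There the leukocyte list was lower in 6 of 6 with a median of -0.50, against 0.0023 over all 293 features, of which 144 were lower. In limma 2 members of the leukocyte list passed, and they were the only 2 of the 293 features that did. The erythroid list was lower in 3 of 3 with a median of -0.53, and the muscle list in 3 of 4 with a median of -0.87. In DEX against Control these medians were -0.07, -0.07 and -0.09, and in CAF+DEX against Control -0.24, -0.34 and -0.01. The muscle medians rest on few and variable values. Mir133b averaged 0.28 reads per library and Mir206 13.8, and the Control SD on the log2 scale was 0.74 for Mir1b and 0.92 for Mir133a-2. The marker lists in CAF+DEX against CAF, where the Mir190b difference was -0.05, had 0 members that passed. The leukocyte list was higher in 6 of 6 with a median of 0.19, led by Mir155 at 0.50 (SE 0.17), and the erythroid list was higher in 3 of 3 with a median of 0.22. The hepatocyte list had 3 of 8 higher and a median of -0.02. The muscle list had 3 of 4 higher and a median of 0.97, with Mir133a-2, a muscle microRNA averaging 26.1 reads, at 1.36 (SE 0.57). The stellate and smooth muscle list had 2 of 4 higher (median -0.02), the biliary list 2 of 3 (median 0.02) and the neuron and endocrine pancreas list 1 of 3 (median -0.07), while Mir126a, of endothelium, stood at -0.40 (SE 0.31). Their part in the Mir190b values was not tested. In Control the sums of the muscle and hepatocyte lists, Mir126a and Mir190b were all lowest in library 3. The sums of the leukocyte, stellate and smooth muscle, biliary, and neuron and endocrine pancreas lists were highest there, and that of the erythroid list lay between. The muscle and hepatocyte lists were highest in library 1, and Mir126a and Mir190b in library 4.

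Across the 12 libraries, no feature of at least 20 reads followed Mir190b closely. Among 175 such features the highest Pearson r on the log2 scale was 0.53, for Mir340-2 (Spearman rho 0.39), and it was -0.01 without Control libraries 1 and 4, the 2 farthest from the Mir190b median. Next were Mir141, an epithelial microRNA of bile ducts, at r = 0.51 (rho 0.56, and r = 0.73 without those libraries), and Mir190 itself at r = 0.51 (rho 0.21, and r = 0.27 without them). Mir3559 followed at r = 0.48 (rho 0.46, and 0.48 without them) and Mir1b, the muscle microRNA, at r = 0.47 (rho 0.59, and 0.29 without them). After the group means were taken out, r with Mir190b was 0.76 for Mir190, 0.52 for Mir340-2, 0.46 for Mir141, 0.07 for Mir3559 and 0.48 for Mir1b. These values were picked as the extremes of 175 and share library, depth and scaling, so they are descriptions and carry no p. The biliary list that holds Mir141 did not share its pattern. In Control its sum was highest in library 3, where Mir190b was lowest, at 13961 FPKM against 8560 and 9847 FPKM in libraries 1 and 4. In DEX against Control 2 of its 3 members were higher, and Mir141 was lower at -0.32.

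The most opposite patterns belonged to 2 genes of the miR-17-92 cluster, a growth-promoting group of microRNAs made from 1 transcript. Mir92a1 (chromosome 15, 92181336 to 92181413) had r = -0.85 with Mir190b (rho -0.77), r = -0.62 without Control libraries 1 and 4, and r = -0.81 within groups. It was lowest in Control library 4, at 9139 FPKM, where Mir190b was highest, and stood at 9839 FPKM in Control library 1 and 10463 in Control library 3. Mir20a (chromosome 15, 92181084 to 92181168) had r = -0.76 (rho -0.69), r = -0.46 without those libraries, and r = -0.49 within groups. It was also sixth in the order of p for DEX against Control, with a difference of 0.23 (SE 0.08). The other 4 genes of the cluster, named after their values were seen, had r = -0.27 (Mir17), 0.05 (Mir18a), -0.25 (Mir19a) and -0.42 (Mir19b1), against a median of -0.07 over the 175 features.

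**Figure D5:**
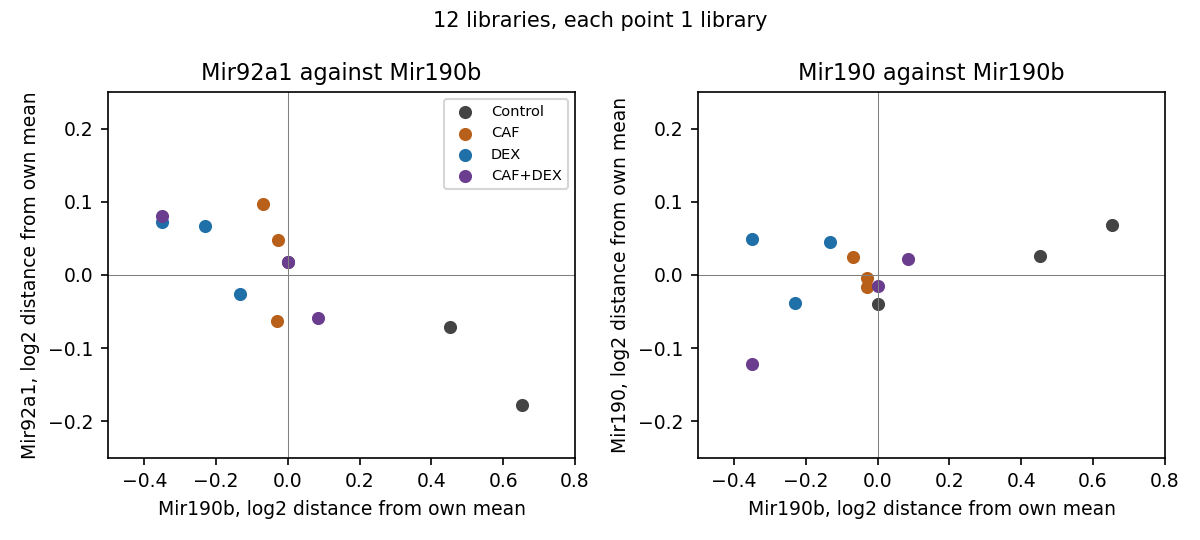
Distance of Mir92a1 (left) and Mir190 (right) from their own mean over the 12 libraries (y axis, log2) against that of Mir190b (x axis, log2); each point is 1 library, and Control library 3 and CAF+DEX library 5 nearly coincide. Mir92a1 falls from left to right (r = -0.85), and the lowest point of Mir190, CAF+DEX library 1, is -0.12 from its mean (r = 0.51).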

How the data were processed

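The values are FPKM per microRNA gene, made by the authors. Per the submitters' processing notes, reads were handled with cutadapt 3.7, STAR 2.7.11b and featureCounts (Subread 2.0.6) on rn7. Settings, and whether molecular indices were collapsed, were not given in the sources used here. FPKM times length in kilobases summed to 1000000 in each library, so scaling was to reads on listed features. Reads were recovered as the total that makes all values multiples of 0.01 read. Mir190b had whole reads (within 0.001) in 11 of 12 libraries and Mir190 in 2, as when reads mapping to several places are shared.

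The 293 features above 0 in at least 3 libraries were tested as log2(FPKM + 4.01), 4.01 being the 10th percentile of their values above 0, in 1 limma-trend model of 4 group means (limma 3.58.1, R 4.3.3), with Benjamini-Hochberg adjustment over all 293. The log scale understates changes of rare features. The script was checked on simulated data. The members, lists and comparisons were chosen with earlier results of these data known. Named features are the family, those sharing its seed, the 3 next in order of p in DEX against Control, the nearest listed genes, the 5 most like and 2 most opposite patterns, and list members with the smallest p. Of 424 microRNA symbols, 381 matched the RefSeq table. Mir29a, Mir29c, Mir378a, Mir200a, Mir200c and Mir208a, named in the lists, were not analysed here. Alternatives covered scaling, pseudocount, filter, limma-voom, samples fitted, a library-number block and leaving out each library.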

Additional observations from a re-analysis of the deposited data

How the results depend on the processing

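The Mir190b difference between CAF+DEX and CAF did not pass in any of the 21 alternatives, and it stayed negative in 20 of them. Leaving out 1 library at a time gave -0.13 to 0.085, the positive value coming without CAF+DEX library 1. Its exact permutation p ran from 0.1 to 1 over the same omissions, 0.1 being the smallest that 2 against 3 allow. The number of features called in that contrast was 0 in all 21. The Mir190 difference was 0.011 under quantile normalization and ran from -0.070 to 0.0012 with 1 library left out. The log2 ratio of Mir190b to Mir190 reads ran from -0.062 to 0.084, with the sign turned in 3 of 6 omissions and an exact permutation p of 0.1 to 1. The Mir190b differences from Control kept their sign in all 21 alternatives, from -0.81 to -0.47 in DEX, -0.59 to -0.27 in CAF and -0.64 to -0.32 in CAF+DEX. The header library number as a replicate block left CAF+DEX against CAF at -0.05 (limma adjusted p = 0.988). Libraries of CAF and CAF+DEX with the same number had correlations of deviations of -0.11, 0.10 and 0.08. No pairing by number was seen there, but values from 3 libraries per group cannot exclude it. Sample titles could not be matched to columns. Alternatives for Mir190, the exact permutation test, the read ratio, the Control range and the order of p were chosen after seeing the data. The 95% interval of the Mir190b difference between CAF+DEX and CAF ran from -23.2 to 22.2%. Counting error was 4.28% at the mean reads of Mir190b, beside a spread of 1.57 to 22.0% within groups. The 1.57% was that of CAF and lay below the counting error of 4.51% at its mean reads, so nothing is read from how narrow it was.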

Other observations

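The 6 features that, beside Mir190b, had at least 8 of 9 treated libraries below the Control range were named after their values were seen. They were Mir342 and Mir142, microRNAs of leukocytes, rno-mir-486, of red blood cells, Mir25, Mir130b and Mir494. They averaged 872, 36674, 131, 19024, 52.9 and 1.75 reads per library, in that order. The other leukocyte names, Mir146a, Mir155, Mir223 and Mir150, and the other erythroid names, Mir144 and Mir451a, were not among the 6. The summed leukocyte list in DEX, at 252967 to 288492 FPKM, overlapped that in Control, at 256370 to 291122 FPKM. Mir494 was below in all 9 and is near the limit of counting. Mir190b was not among the names chosen for the leukocyte or erythroid list, and which cells its reads came from was not tested.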
